A study of Mus musculus with 90 samples.

Results

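The regions described here carried both trimethylated lysine 4 of histone H3 (H3K4me3) and the enzyme Mll2 in V6.5 cells, a line of mouse embryonic stem cells, and the question was how much mark each region carried for the enzyme found there. Overlapping autosomal H3K4me3 peaks of 2 libraries were merged into 24929 regions, of which 18336 held a peak of both libraries. Of these, 14973 also overlapped a peak of both Mll2 libraries and form the set, and the other 3363 were left out. Each region has a level in each library, which is its peaks' summed tags (sequenced fragments counted by the authors) divided by their summed length in kb and then by the library's median over the 14973 regions. Mark per enzyme is the log2 of the mean H3K4me3 level over the mean Mll2 level, so that 0 stands for a region with as much mark for its Mll2 as a typical one. Menin and spacing did not enter this ratio, while width and the Mll2 peaks did. The 1497 regions with the highest and the 1497 with the lowest mark per enzyme, 10% of the set each, were selected on these levels. Differences in tags between these ends follow from that choice and are given as a description.

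The series holds 90 samples, and 5 peak lists from chromatin immunoprecipitation (ChIP-seq) were used. All 5 came from cells labelled wild type and grown with serum and LIF. The H3K4me3 libraries, numbered 1 and 3, came from cells infected with a lentiviral hairpin against GFP as a control and used a homemade antibody numbered 28, after selection with puromycin. Mll2 was measured in 1 library with the homemade antibody 9172 and in 1 with the homemade antibody 9175, and Menin in 1 library with a Bethyl antibody. The labels give no infection for these 3, so that mark and enzyme were measured in different cell preparations. The labels do not say if the H3K4me3 replicates were grown apart, and regions of a library are not replicates, so no p-value was computed over regions. The spread used instead is that over the 4 pairs of 1 H3K4me3 and 1 Mll2 library, each of which shares a library with 2 of the others.

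Mll2 (also called Kmt2b) is a histone methyltransferase of the COMPASS family, whose CXXC domain binds unmethylated CpG-rich DNA. Its known sites of action include the promoters of developmental genes that are kept poised in embryonic stem cells, where they carry H3K4me3 together with the repressive mark H3K27me3. Other enzymes of the family, Set1A and Set1B with their partner Cfp1, place much of the H3K4me3 at active promoters. Menin is a subunit shared by the Mll1 and Mll2 complexes.

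H3K4me3 levels spread far more widely over these regions than Mll2 levels. Tags per kb had medians of 259.9 in H3K4me3 replicate 1 and 160.4 in replicate 3, and the 95th percentile was 7.75 and 9.47 times the 5th. For Mll2 the medians were 74.1 tags per kb with antibody 9172 and 58.1 with antibody 9175, and the same ratios were only 3.14 and 3.19. On the log2 scale the mean H3K4me3 level had an SD of 0.97 over regions and the mean Mll2 level an SD of 0.49. The levels ran together, with a Spearman's rho of 0.73 and a Pearson's r of 0.72 over the 14973 regions. Such correlations are descriptions, since regions share their libraries and neighbouring regions are weakly alike. With regions sorted by Mll2 level into 10 equal groups (deciles), the median Mll2 level went from 0.590 times typical in decile 1 to 1.17 in decile 7 and 1.77 in decile 10. The median H3K4me3 level went from 0.320 to 1.33 over the first stretch and from 1.33 to 1.64 over the second. By these levels the mark thus grew faster than the enzyme in the lower deciles and more slowly in the upper ones. In replicate 1 it was nearly flat at the top, with 375 tags per kb in decile 9 and 378 in decile 10, and in replicate 3 it went from 259.9 to 291. Tags per kb include background tags, and each region had a peak in all 4 lists. The median fold over background in the authors' lists was 47.0 and 44.25 in H3K4me3 replicates 1 and 3. For Mll2 it was 16.4 and 18.75 with antibodies 9172 and 9175. How far background and peak calling shaped the spreads and these trends was not tested.

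**Figure D1:**
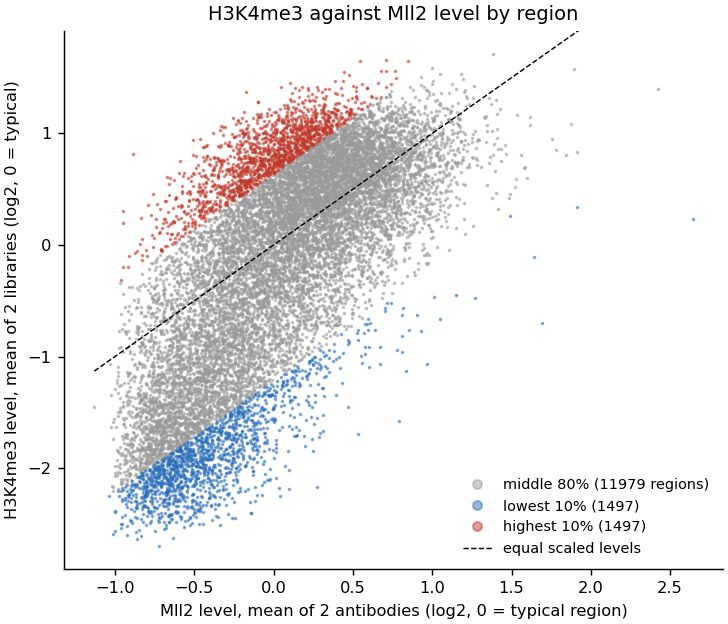
Each point is 1 of 14973 regions, with its mean Mll2 level on the x axis and its mean H3K4me3 level on the y axis, both log2 with 0 for a typical region; red and blue mark the highest and lowest 10% by mark per enzyme and the dashed line equal scaled levels. The cloud is taller than it is wide, with an SD of 0.97 for H3K4me3 against 0.49 for Mll2, so the ends lie apart mainly in their mark.

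The ends of the ranking therefore differed mainly in the mark. In the highest 10% the median H3K4me3 tags per kb were 467 in replicate 1 and 282 in replicate 3, against 69.7 and 39.6 in the lowest 10%, which is 6.70 and 7.12 times as many. The median Mll2 tags per kb were 75.4 with antibody 9172 and 53.9 with antibody 9175 in the highest 10%, against 53.7 and 43.5 in the lowest, a far smaller difference. Mll2 was highest in the middle of the ranking, with a median log2 level of 0.29 in decile 6, -0.44 in decile 1 and -0.029 in decile 10. The median mark per enzyme was 0.81 in the highest 10% and -1.45 in the lowest.

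The limits of the ends lay on a continuum. The region just inside the highest 10%, on chromosome 7 from 87467901 to 87469710 (mouse build mm9), and the one just outside it, on chromosome 16 from 16357193 to 16359706, both had a mark per enzyme of 0.65. Those just inside and outside the lowest 10%, on chromosome 9 from 123065667 to 123066392 and on chromosome 7 from 52489445 to 52491556, both had -1.22.

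To ask whether the ends would be found again, they were chosen in 1 pair of libraries and read in the other H3K4me3 and the other Mll2 library, which the choice had not used. Regions chosen with replicate 1 and antibody 9172 had a median mark per enzyme of 0.69 (highest 10%) and -1.39 (lowest 10%) in replicate 3 and antibody 9175, against -0.16 for all regions. The difference between the ends was 2.30 where they were chosen and 2.09 where they were read. Over the 4 such choices it was 1.96 ± 0.091 (SD over the 4 choices), with a range of 1.87 to 2.09, or 3.67 to 4.24-fold. What was found again was mainly the mark. In the unused libraries the median log2 H3K4me3 level was higher in the highest 10% by 2.49 to 2.54. The Mll2 level there was not lower but higher, by 0.27 to 0.69. With regions ranked within 10 equal groups of H3K4me3 level, the mean difference in the unused pair was 0.76. Of the highest 10% in 1 pair, 45.5 to 47.7% were again among the highest 10% in the unused pair, and of the lowest 10%, 48.2 to 52.4% were again among the lowest, against the 10.0% that each end makes up of all regions. A single region per choice moved to the opposite end. In the highest 10% of all 4 pairs stood 528 regions, which is 3.53% of all and 35.3% of an end, and in the lowest 10% of all 4 stood 591, or 3.95% and 39.5%. Each pair shares a library with 2 of the others, so these counts are a description. Both Mll2 lists were called against an input of the same 20878021 kept tags, so the unused pair is not free of a shared input in its peak calls.

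**Figure D2:**
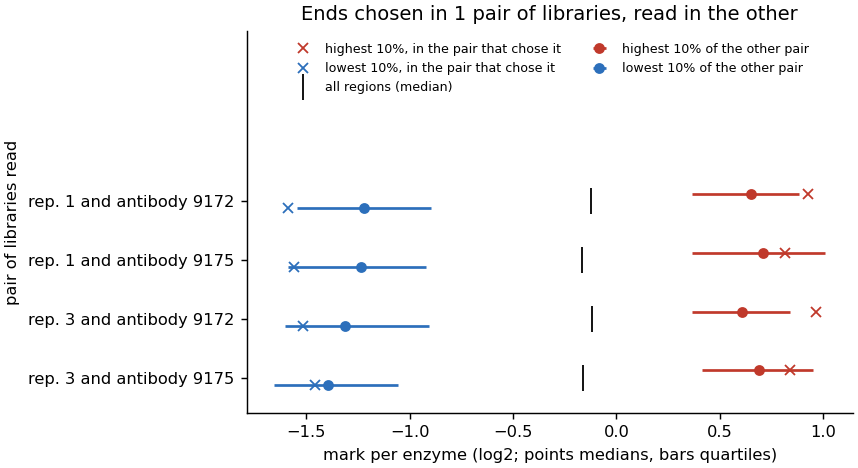
Median mark per enzyme (log2) of the regions chosen as highest (red) or lowest (blue) 10% in 1 pair of libraries, read in the pair named on the y axis, which shares no ChIP library with it; circles are medians, bars quartiles, crosses the medians in the choosing pair and ticks the median of all regions. The circles lie closer to all regions than the crosses but stay apart by 1.87 to 2.09.

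The H3K4me3 libraries differed in how closely they followed Mll2. Replicate 3 did so more closely (rho of 0.77 with antibody 9172 and 0.70 with antibody 9175) than replicate 1 did (0.66 and 0.57), and the log2 ratio of replicate 3 to replicate 1 had a rho of 0.46 with the Mll2 level. The SD of that ratio over regions was 0.43, and that of the ratio between the antibodies was 0.29. Counting error was computed for mark per enzyme only, with a median standard error of 0.11 in the highest and 0.21 in the lowest 10%. It was not computed for the ratio between the replicates or between the antibodies, so these SDs cannot be set against it. The choice of H3K4me3 library therefore enters the results on spacing below, and its values are given there.

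Among the regions in the highest 10% of all 4 pairs, the highest mark per enzyme, 1.71, lay on chromosome 3 from 88128339 to 88130426. It had 477 and 270.5 H3K4me3 tags per kb in replicates 1 and 3, and 40.1 and 31.3 Mll2 tags per kb with antibodies 9172 and 9175, from only 20 and 24 Mll2 tags. Here a mark above typical in both libraries met an enzyme below typical in both antibodies, and the 4 pairs gave 1.64 to 1.77. The next, on chromosome 10 from 79754721 to 79757636, had 591 and 464 H3K4me3 tags per kb and 72.3 and 46.3 Mll2 tags per kb, in 2 Mll2 peaks of each antibody. Its Mll2 tags per kb, taken over both peaks, were close to typical with antibody 9172 and below it with 9175. By the highest fold over background in the authors' lists its Mll2 was above typical, at 31.3 and 21.2 against medians of 16.4 and 18.75. Its mark was above the 95th percentile in both libraries, and its next H3K4me3 region lay 557 bp away. The third, on chromosome 3 from 41358824 to 41363016, was 4193 bp wide, with 534 and 285 H3K4me3 and 54.1 and 39.2 Mll2 tags per kb. A region on chromosome 14 from 56208828 to 56211877 (1.42) likewise had 539 and 287 H3K4me3 and 52.2 and 43.1 Mll2 tags per kb. One on chromosome 2 from 145759381 to 145761205 had 556 and 364 H3K4me3 and 60.5 and 49.8 Mll2 tags per kb. All 5 overlapped Menin peaks, as did 97.6% of all regions.

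At the other end, the lowest mark per enzyme among regions in the lowest 10% of all 4 pairs, -2.45, lay on chromosome 14 from 47984201 to 47985205. Its 58.1 and 35.3 H3K4me3 tags per kb were far below typical, while Mll2 was 48.3 tags per kb with antibody 9172 and 102.7 with antibody 9175, so that the antibodies disagreed and the pairs ran from -3.01 to -1.54. The next regions, on chromosome 16 from 57391165 to 57392069 (-2.41) and from 11143753 to 11144579 (-2.40), were unlike the rest. The first had 204 and 250.4 H3K4me3 tags per kb and 383 and 425 Mll2 tags per kb, yet H3K4me3 folds over background of only 5.18 and 4.27, as the authors' lists give them. Dividing tags per kb by fold gives a background of 39.4 and 58.6 tags per kb in the H3K4me3 libraries there, against medians of 5.82 and 3.81 over all regions, and 34.1 and 20.3 at the second. Background above 3 times the median in any list was found at 34 regions, 5 in the highest and 8 in the lowest 10%. Chromosome 1 from 72300824 to 72302590 (-2.37) showed the pattern without that background, with 80.6 and 57.5 H3K4me3 tags per kb against 148 and 84.8 for Mll2. Chromosome 8 from 111317814 to 111318994 (-2.29) had 54.7 and 33.9 against 77.1 and 59.1, and its next H3K4me3 region lay 686 bp away. Its H3K4me3 background of 8.41 and 7.79 tags per kb was above the medians, though below the limit of 3 times the median. Its H3K4me3 folds were low, at 6.5 and 4.35.

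Regions with much mark per enzyme were wide. The median width was 2729 bp in the highest 10% (quartiles 2198 and 3451 bp) and 1247 bp in the lowest (1018 and 1586 bp), 2.19 times as wide, against 2102 bp for all regions. Width grew from each decile of the ranking to the next. The log2 ratio of the widths was 1.13, and 0.95 to 1.18 in the 4 pairs alone. Width is not independent of the ranking, because tags per kb has length in it and mark and width ran together (rho of 0.64 with H3K4me3 and 0.49 with Mll2). When regions were ranked within 10 equal groups of Mll2 level, so that the ends had the same enzyme (median log2 level of 0.012 in the highest and 0.013 in the lowest), the widths were 2766.5 and 1534.5 bp, 1.80 times as wide (1.69 to 1.96 in the 4 pairs). Ranked within 10 equal groups of H3K4me3 level, the ends had the same mean mark (median log2 level of 0.034 and 0.031). The widths were then 2009 and 2102.5 bp. The ratio was 0.85 to 1.01 in the pairs, each of which held only its own H3K4me3 library equal. With replicate 1 and antibody 9172, replicate 3 had 126 tags per kb in the highest and 226 in the lowest 10%. The width difference thus went with the mark and was not seen once the mean mark of both libraries was held equal.

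Mll2 peaks covered less of the region where mark per enzyme was high. The summed Mll2 peaks were 1309 bp (antibody 9172) and 1390 bp (antibody 9175) long in the highest 10% and 834 and 1039 bp in the lowest, while the H3K4me3 peaks were 2726 and 2309 bp against 1210 and 927 bp. Serum 9175 peaks covered a median of 52.7% of the region in the highest and 80.4% in the lowest 10%, and antibody 9172 peaks 49.2% and 66.6%. Within groups of width, where both ends had the same median width to within 1 bp, the shares were 56.7 and 76.4% with antibody 9175 and 51.0 and 63.6% with antibody 9172. Within groups of H3K4me3 level they were 53.4 and 73.1%, and 46.6 and 64.1%. Coverage is not independent of any of these rankings, because the length of the Mll2 peaks enters Mll2 tags per kb. Within groups of H3K4me3 level the ranking is nearly one by Mll2 level itself. The summits of antibody 9175 and H3K4me3 replicate 3 lay a median of 171 bp apart in the highest and 147 bp in the lowest 10%, with overlapping quartile ranges (78 to 324 bp and 71 to 277 bp).

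**Figure D3:**
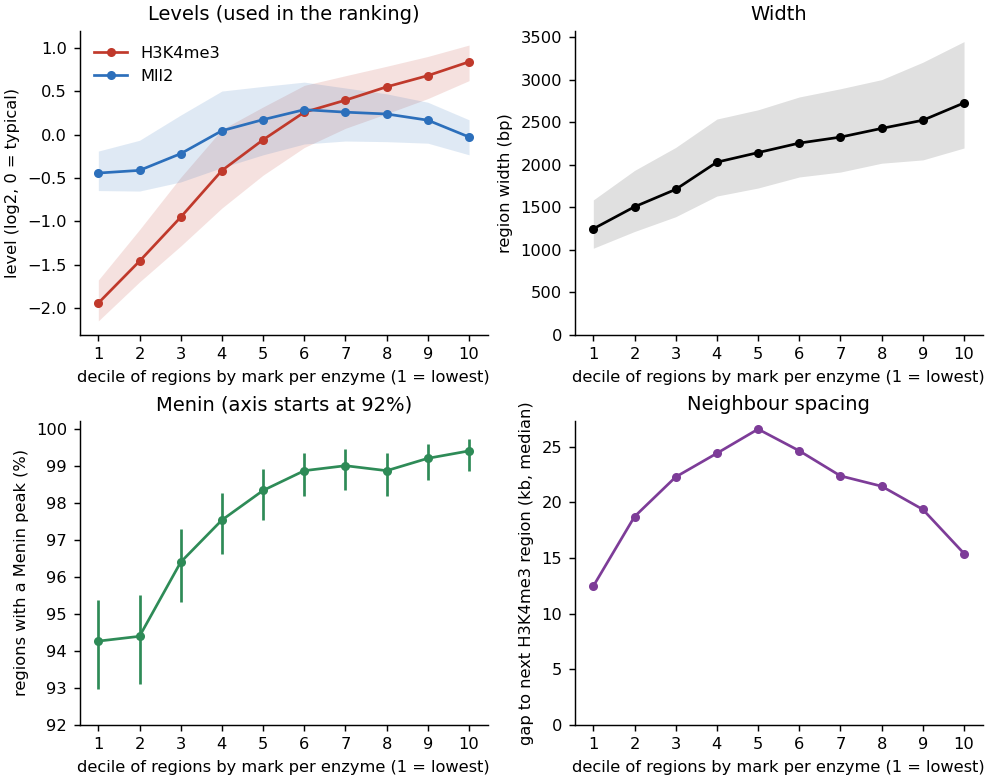
The 4 panels give, for each decile of regions by mark per enzyme, the log2 levels that made the ranking, the width in bp, the percentage with a Menin peak (bars are exact 95% intervals for counting error, axis from 92%) and the median gap in kb to the next H3K4me3 region; shaded bands are quartiles. Width climbs from 1247 to 2729 bp, the Menin share from about 94.3 to 99.4%, and the gap is longest in the middle.

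Menin, which the ranking did not use, was found at nearly all regions, 97.6% of the set. It was present at 1488 of the 1497 regions in the highest 10%, or 99.4% (exact Clopper-Pearson 95% interval 98.9 to 99.7%), and at 1411 of those in the lowest, or 94.3% (93.0 to 95.4%). The difference was 5.14 percentage points. It ran from 3.07 with replicate 1 and antibody 9175 alone to 7.28 with replicate 3 and antibody 9172, and was 2.74 when the highest fold over background replaced tags per kb. Where Menin was present its level was 60.9 tags per kb in the highest and 51.2 in the lowest 10% (quartiles 52.6 to 70.6 and 43.4 to 62.7), a ratio of 1.19. Its highest fold over background went slightly the other way, with medians of 11.05 in the highest and 11.5 in the lowest 10%. Across regions Menin followed Mll2 (rho of 0.59) more closely than H3K4me3 (0.46) or mark per enzyme (0.21), over the 14617 regions with Menin.

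With the mark held equal the direction turned. Within groups of H3K4me3 level, Menin was present at 94.2% of the regions with the most mark per enzyme, which are those with the least Mll2, and at 99.3% of those with the least mark per enzyme. The difference was -5.13 points. It was smallest, -2.93, with replicate 3 and antibody 9172 alone and -3.13 without antibody 9175, and largest, -7.20, with replicate 1 and antibody 9175. A pair alone held the mark equal only in its own H3K4me3 library. The difference was greatest where the mark was weak. Where the mark was strong both shares were near 100%, which left little room for a difference. In decile 1 of H3K4me3 level the shares were 83.3 and 97.3%, in decile 5 they were 94.7 and 100%, in decile 9 they were 98.7 and 100%, and in deciles 8 and 10 all regions of both ends had Menin. The Menin level differed in the same direction, with medians of 50.8 and 71.2 tags per kb, 1.27 to 1.50 times as much in the Mll2-rich end in the pairs. Within groups of Mll2 level the shares were 98.7% with much and 97.0% with little mark, and the Menin levels 62.6 and 58.9 tags per kb. Within groups of width the difference was -0.80 points, with values on both sides of 0 in the pairs (-2.80 to 2.00).

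Several Mll2 peaks in 1 region were somewhat more frequent where mark per enzyme was high. With antibody 9172, 13.9% of the highest 10% (12.2 to 15.8%) and 7.08% of the lowest (5.83 to 8.50%) held 2 or more peaks, against 9.41% of all regions. With antibody 9175 the shares were 9.75% (8.30 to 11.4%) and 5.48% (4.38 to 6.75%), against 7.06%. The mean difference over the antibodies was 5.54 points, and 3.57 with replicate 3 and antibody 9172 alone. With tags per kb of the whole region, or the highest fold, it was -0.90 and -0.60. Within groups of width the difference turned: on average over the antibodies 6.70% of regions with the most and 19.0% of those with the least mark per enzyme held several peaks. Per 10 kb of region, too, there were fewer Mll2 peaks in the highest (4.13) than in the lowest 10% (8.57). Within groups of H3K4me3 level the mean shares were 13.6% with the most and 2.67% with the least mark per enzyme, against 8.23% of all regions. Mll2 tags per kb is taken over all Mll2 peaks of a region, so the number of peaks is not independent of this ranking.

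Neighbour spacing separated both ends from the middle more clearly than from each other. The median gap to the next H3K4me3 region of both libraries was 15403 bp in the highest 10% (quartiles 6097 and 33920 bp) and 12453 bp in the lowest (4122 and 43475 bp), against 25864 bp in the middle deciles 5 and 6. The log2 ratio of the ends was 0.31, less than the 0.37 SD over the 4 pairs, which ran from -0.20 with replicate 1 and antibody 9175 to 0.69 with replicate 3 and antibody 9172. It was -0.037 without replicate 3 and -0.32 when peaks scoring under 100 were dropped. By contrast the gap in the middle was longer than in the ends together in each of the 4 pairs, by 1.53 to 1.68-fold. Near neighbours were more frequent in the lowest 10%, where 16.4% of regions (14.6 to 18.4%) had the next H3K4me3 region under 2 kb away, against 8.48% of the highest 10% (7.12 to 10.0%) and 8.98% of all regions. That difference was -7.95 points, and ran from -4.21 with replicate 1 and antibody 9175 to -10.2 with replicate 3 and antibody 9172. It turned within groups of H3K4me3 level, where 11.7% of regions with the most and 7.13% of those with the least mark per enzyme had such a neighbour, a difference of 4.60 points. Of these near neighbours of the lowest 10%, 79.7% had the higher H3K4me3 level of the 2 regions, close to the 81.2% for neighbours of the lowest 10% at any distance. For near neighbours of the highest 10% the share was 14.2%, and for those of all regions 41.7%. Such shares follow from the ranking, since the lowest 10% had little mark by choice. The share within 50 kb was greatest in the highest 10%, at 85.0%, against 77.4% in the lowest and 73.7% of all.

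Spacing also differed with Mll2 at equal mark. Within groups of H3K4me3 level, the regions with the most mark per enzyme, hence the least Mll2, had a median gap of 12739 bp (quartiles 4716 and 32177 bp), and those with the least mark per enzyme one of 28361 bp (9132 and 70115 bp). The gap was 2.23 times as long where Mll2 was plentiful, with 116 and 97.1 Mll2 tags per kb (antibodies 9172 and 9175) against 51.8 and 39.4. In the 4 pairs alone the ratio was 1.31 with replicate 3 and antibody 9172, 1.84 with replicate 1 and antibody 9172, 2.37 with replicate 3 and antibody 9175 and 2.80 with replicate 1 and antibody 9175. The direction was common to the pairs and the size was not. A pair alone held the mark equal only in its own H3K4me3 library. With replicate 1 and antibody 9175, replicate 3 had medians of 127 tags per kb where Mll2 was low and 230 where it was high. With replicate 3 and antibody 9175, replicate 1 had 301 and 222. With the highest fold over background in place of tags per kb, the log2 ratio of the gaps (most over least mark per enzyme) was -0.52, against -1.15. The longer gap was on the Mll2-rich side in 9 of the 10 groups, and in the group with the least H3K4me3 it was not (12393 bp with little and 10860 bp with much Mll2). In the group with the most mark the medians were 10055 and 32643 bp. Of the regions with little Mll2 for their mark 83.3% had another H3K4me3 region within 50 kb, against 65.8% of those with much. Replicate 1 and replicate 3 differed between these ends, with medians of 294 and 148 tags per kb where Mll2 was low and 222 and 180.1 where it was high, so the mark was equal in the mean of the libraries and not in each. Their part in the result was not tested beyond the 4 pairs.

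**Figure D4:**
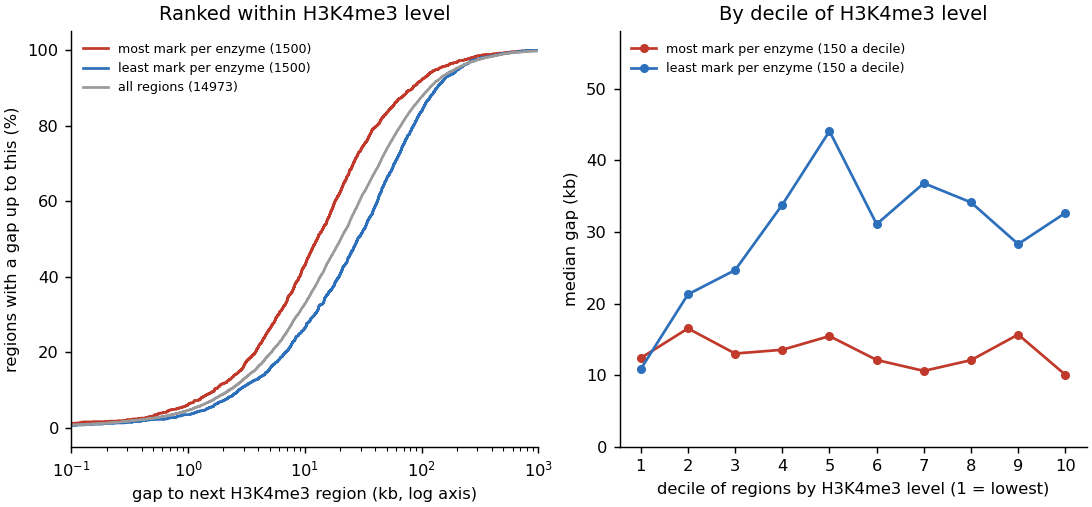
Left, the percentage of regions whose gap to the next H3K4me3 region is at most the value on the x axis (kb, log axis), for regions with the most (red) and least (blue) mark per enzyme within groups of equal H3K4me3 level and for all regions (grey); right, the median gap in kb in each decile of H3K4me3 level. The blue gaps are longer in 9 of 10 deciles, with overall medians of 28361 against 12739 bp.

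**Figure D5:**
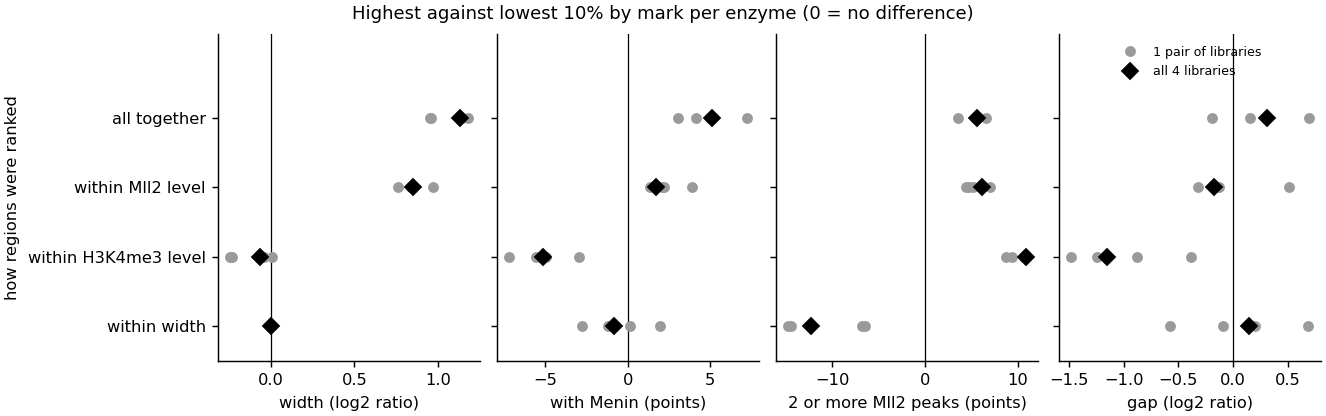
Highest against lowest 10% by mark per enzyme in width and gap (log2 ratios) and in the shares with Menin and with 2 or more Mll2 peaks (percentage points), by how regions were ranked; diamonds use all 4 libraries, grey circles 1 pair each, and the line marks no difference. Within H3K4me3 level all 4 pairs lie left of the line for Menin and for the gap, and within width all 4 do for the share with several Mll2 peaks.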

How the data were processed

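Peaks were called by the authors with MACS 1.4.2, per the file headers, for each library against 1 input at a p cutoff of 1e-05, keeping 1 tag per position. The headers of both Mll2 lists give an input of the same 20878021 kept tags. The build mm9 and Bowtie 0.12.9 are per the submitters' processing notes. Tags per peak were deposited as whole-number counts with no scaling to depth. The deposited fold is the ratio over the background as estimated by MACS, the deposited score is minus 10 times the log10 of the p-value, and the deposited false discovery rate, in percent, was not used. Kept tags ran from 11550409 (Menin) to 21936546 (H3K4me3 replicate 1), and 4 to 17% of tags had been removed as duplicates, which limits the tags of the densest peaks. Tags per kb include background tags, and a region enters only where all 4 lists have a peak.

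Regions, levels and ends were computed in Python 3.11.15 with pandas 2.3.3, NumPy 2.4.6 and SciPy 1.17.1, with an overlap of at least 1 bp. The interval code was checked against bedtools. The ranking code was tested on simulated data without the real spread between regions, which checks the arithmetic only. Gaps run to the nearest other H3K4me3 region of both libraries on the chromosome. Intervals on shares cover counting error only. Named regions are the 5 highest and 5 lowest by mark per enzyme among those in the same end in all 4 pairs, without chromosome 18. The set, its ends and the properties compared were chosen with earlier results of these data known. Gene annotation and genome sequence in mm9 were not used here.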

Additional observations from a re-analysis of the deposited data

How the results depend on the processing

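Leaving out libraries, 1 at a time or down to 1 pair, gave log2 width ratios of 0.95 to 1.18, Menin differences of 3.07 to 7.28 points, differences in several Mll2 peaks of 3.57 to 6.58 points, log2 gap ratios of -0.20 to 0.69, unused-pair differences of 1.87 to 2.09 and log2 ratios of the middle to the end gap of 0.61 to 0.82 (0.87 with all libraries). Peaks with a score of at least 100 gave 0.87 for width, 2.73 points for several peaks, -0.32 for the gap, 1.76 for the unused pair and 0.68 for the middle gap. The highest fold in place of tags per kb gave 0.75 for width, 2.74 points for Menin, -0.60 points for several peaks and 0.76 for the middle gap. Tags per kb of the region gave -0.90 points for several peaks and 2.72 for the unused pair. Ends of 5% gave 1.27 for width, 8.54 points for several peaks, 2.15 for the unused pair and 1.00 for the middle gap, and ends of 20% gave 0.94, 2.75 points, 1.67 and 0.67 in that order. Ranking within H3K4me3 level gave -0.066 for width, -5.13 points for Menin, 10.9 points for several peaks, -1.15 for the gap, 0.76 for the unused pair and 0.46 for the middle gap, and 4.60 points for neighbours under 2 kb. Within Mll2 level the values were 0.85 for width, 1.73 points for Menin, -0.17 for the gap, 1.78 for the unused pair and 0.57 for the middle gap. Within width they were -0.80 points for Menin, -12.3 points for several peaks, 1.55 for the unused pair and 0.77 for the middle gap. For the middle gap within H3K4me3 level, Mll2 level or width, only the ends were chosen within groups. The middle was still that of the ranking of all regions, so these values are not middle-to-end ratios of a ranking within groups. The gap to a region of either library gave 0.69. Mll2 peaks per 10 kb differed by -4.44. The distance from the line of H3K4me3 on Mll2, added after the data were seen, gave 0.90 for width, 2.40 points for Menin, 8.35 points for several peaks, -0.11 for the gap and 0.77 for the middle gap. Where a direction turned the cause was not tested. At equal H3K4me3 level, in the libraries that a setting used, the gap ratio was negative in all 19 settings (-1.48 to -0.39) and the Menin difference in all 18 (-7.42 to -2.93). At equal Mll2 level the width ratio was positive in all 18 (0.65 to 1.26). These, the 2 kb share and the setting without the 34 regions of high background were added after the data were seen, and that last setting turned no direction. No paired analysis was possible with the Mll2 libraries used, because they carry no number shared with the H3K4me3 libraries. The series also holds Mll2 libraries labelled with the GFP hairpin, 1 of them numbered 3 like an H3K4me3 library. Those libraries were not used here. Depth limits the lowest 10% most, where the median tags a region were 87 and 38 in H3K4me3 replicates 1 and 3 and 47 with either Mll2 antibody.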

Other observations

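Mark per enzyme was weakly alike between neighbours. Over the 12228 regions whose nearest H3K4me3 region also belonged to the set, a region and its neighbour had a Pearson's r of 0.19 and a Spearman's rho of 0.20. The rho was 0.26 for the 543 regions with a gap under 1000 bp, 0.21 for the 507 with gaps of 1000 to 2000 bp, 0.26 for the 1292 with gaps of 2000 to 5000 bp, 0.22 for the 3700 with gaps of 5000 to 20000 bp, 0.15 for the 4760 with gaps of 20000 to 100000 bp and 0.016 for the 1426 with longer gaps. Neighbours share their libraries, and pairs that are each other's nearest are counted from both sides.

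The ends were spread over all autosomes in unequal shares. The highest 10% made up 13.5% of the 1189 regions on chromosome 7 and 12.8% of the 1254 on chromosome 11, and 5.61% of the 517 on chromosome 14. The lowest 10% ran from 7.19% of the 459 regions on chromosome 16 to 12.3% of the 912 on chromosome 8.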
